A study of Mus musculus with 16 samples.

Results

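Polyribosomal RNA was set against total RNA in the 4 Tsc2 mutant cultures of neural stem cells (NSCs) of the mouse ventricular-subventricular zone (V-SVZ). These cultures were chosen by their label and gave 8 of the 16 libraries of the series, a total and a polyribosomal library from each of 4 of the 8 cultures. Both libraries of a culture carry its number, so the comparison was made within a culture. The study asked how loss of Tsc2 alters transcription and translation in NSCs and profiled wild-type and mutant cultures in the same way.

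All cultures came from neonatal pups injected with tamoxifen, were grown with EGF and FGF on laminin and were passaged once. The mutant group was labelled Tsc2 mutant/mutant, the floxed Tsc2 allele being recombined by Nestin-CRE-ERT2, a Cre driven by the Nestin promoter and switched on by tamoxifen, in mice with a tdTomato reporter. The wild-type group was labelled Tsc2 wild type/wild type, and the sources used here do not make clear whether those pups carried Cre. Recombination is limited to cells in which the Nestin promoter was active. The study checked the subcultures for the RFP reporter and for loss of Tsc2 with measures not analysed here. The level of Tsc2 (chr17:24595816-24632630, minus strand, GRCm38) in total RNA was 7076, 6811, 6190 and 5592 in mutant cultures 1 to 4, beside a wild-type mean of 6896. The transcript was thus still counted in every mutant culture, and a sum over the whole gene does not show whether the recombined exons were present.

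Ribosomes that follow each other along an mRNA form a polyribosome, which sinks far into a sucrose gradient, whereas free mRNA and mRNA with few ribosomes stay near the top. Tsc2 encodes tuberin, which restrains the kinase complex mTORC1. mTORC1 favours translation of mRNAs that begin with a terminal oligopyrimidine (TOP) tract, most of which encode ribosomal proteins and translation factors. Iron-responsive elements, histone 3′ stem-loops and upstream reading frames are other mRNA features known to set how many ribosomes a transcript carries.

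Cells were held with cycloheximide for 15 min, and the heaviest 3 mL of a 17.5% to 50% sucrose gradient was taken as the polyribosomal fraction. The aliquot for total RNA was removed before a spin at 500 g, and detergent was added to the rest only after that spin. A transcript lost with pelleted nuclei or membranes and a transcript with few ribosomes cannot be told apart in these data. The measure was log2(polyribosomal + 1) minus log2(total + 1) of the deposited normalised read counts of a culture, less the median over genes, here called the log2 ratio. The deposited tables were normalised apart and held no spike-in, so a log2 ratio of 0 is the median gene of that culture and not equal recovery. The ratio says how strongly a gene was represented among heavy polyribosomes relative to other genes, not how many ribosomes each transcript carried.

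Of 24946 genes in the tables, 14333 reached a mean of 10 in both and were tested. The normalised counts summed to 65.6 and 70.7 M per mutant library at the extremes for total RNA and to 87.4 and 96.3 M for polyribosomal RNA. Read depth, estimated from the size of the smallest values, lay at about 52.6 to 137 M for total and 55.7 to 148 M for polyribosomal libraries. The log2 ratios of any pair of mutant cultures correlated across genes with a Spearman rho of 0.896 to 0.945, a description, since genes are not independent replicates.

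Polyribosomal and total levels of a mutant culture correlated closely across genes (Spearman rho 0.920 to 0.945), yet the ratio differed between genes. By limma with Benjamini-Hochberg adjustment, 78.1% of the genes tested stood off the median gene (adjusted p threshold 0.05), 39.7% above it and 38.5% below it. With at least a 2-fold difference also required, 2501 genes (17.4%) were above and 2209 (15.4%) below. In all 4 mutant cultures the ratio was at least 2-fold above the median gene for 1603 genes and at least 2-fold below it for 1368. Tubulin, glycolytic, proteasomal and mitochondrial ribosomal mRNAs lay high, and those of the matrix and giant cadherins and nuclear RNAs lay low. Most ribosomal protein mRNAs lay close to the middle, and lysosomal mRNAs lay moderately below it. With so many genes called, a call by itself says little, and the sizes and counts per group carry the description. Of 156 genes picked by rule, 152 passed the test, and those that did not are said so where they appear. Both libraries came from bulk cultures, so that a gene's ratio is an average over all cells of the dish.

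**Figure D1:**
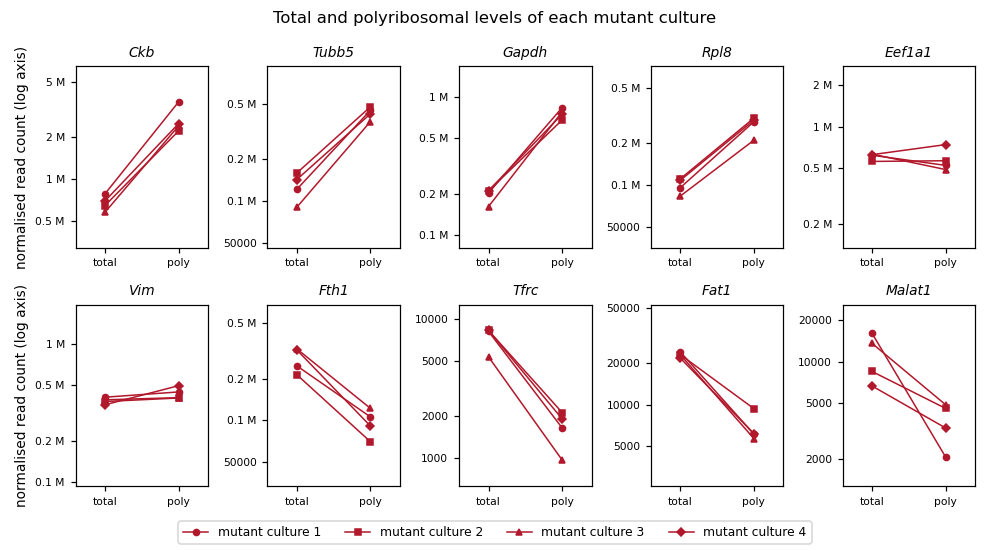
Normalised read counts (log axis, spanning the same fold in each panel) of 10 genes in total and polyribosomal RNA, with a line for each mutant culture. Ckb, Tubb5, Gapdh and Rpl8 rise in all 4 lines, Fth1, Tfrc, Fat1 and Malat1 fall in all 4, and Eef1a1 and Vim stay within a narrow band. The fractions were normalised apart, so a slope is read against that of other genes.

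mRNAs of the translation machinery were described first because they hold the TOP mRNAs. In the RefSeq promoter table (GRCm38.p6), a C followed by 4 bases that are each C or T stood exactly at the annotated start of 813 of 27025 genes (3.01%), searched on the transcribed strand only. It did so for 7 of 25 matched small-subunit and 7 of 34 matched large-subunit ribosomal protein genes. Within 10 bases of the start it was found for 16 and 20 of them, beside 37.2% of matched tested genes. Start windows of 10 bases before and 20 bases from the annotated start, 5′ to 3′, are shown for mRNAs whose ratios follow, so that tracts at and off the annotated start can be seen. Capitals mark the run of C and T nearest to the start, which lies at the 11th base.
Rack1 (chr11:48800350-48800379, plus strand): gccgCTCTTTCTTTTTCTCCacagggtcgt
Rps6 (chr4:86857348-86857377, minus strand): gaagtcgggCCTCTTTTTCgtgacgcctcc
Rpl28 (chr7:4792955-4792984, plus strand): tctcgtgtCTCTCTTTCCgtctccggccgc
Rps18 (chr17:33955646-33955675, minus strand): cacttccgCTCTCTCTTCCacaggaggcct
Eef1a1 (chr9:78481705-78481734, minus strand): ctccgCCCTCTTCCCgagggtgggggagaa
Eef2 (chr10:81176621-81176650, plus strand): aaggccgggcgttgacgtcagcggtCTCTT
Capital runs begin with a C. In Eef1a1 the run begins 5 bases before the annotated start, and in Eef2 the only such run lies 15 bases after it. The windows of Tpt1 and Rpl41, not shown, held no such run. The 350 tested genes with a tract exactly at the start had a median log2 ratio of 0.11, beside 0.017 for the 10824 without one. A tract is a match of letters in an annotation, and real start sites may differ from it.

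Ribosomal protein mRNAs lay a little above the median gene. Of 47 large-subunit genes 33 were higher and 3 lower, with a median log2 ratio of 0.33. Of 34 small-subunit genes 18 were higher and 4 lower, with a median of 0.27. Of all genes 39.7% were higher and 38.5% lower. In the large and small subunit lists 5 and 1 genes passed 2-fold above, beside 17.4% of all genes, and none passed 2-fold below. Scaled to column totals instead of the median gene, both medians turned negative (-0.29 and -0.35), and the median gene itself then stood at -0.69 to -0.55 per mutant culture. That shift turned the medians of 18 of 47 lists, all of them positive and at most 0.60 at the median gene.

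Rpl8, a protein of the large subunit, counted 95754, 110900, 83320 and 108240 in total RNA and 285970, 303640, 210520 and 293670 in polyribosomal RNA of mutant cultures 1 to 4. The log2 ratio was 1.78, 1.64, 1.56 and 1.69, above the median gene in every culture, or 1.67 ± 0.090 (mean ± SD, n = 4 cultures, as below). Rpl41, the shortest ribosomal protein, counted 96277, 114960, 92917 and 134430 in total and 82956, 65954, 52327 and 73173 in polyribosomal RNA, with log2 ratios of -0.016, -0.62, -0.60 and -0.63. Culture 1 was the exception near 0, and the other three stood together below the median gene. Its mean of -0.47 ± 0.30 ran opposite to that of Rpl8. Rps6 (0.32), Rpl28 (0.33) and Rps18 (0.27), all with a tract at the start, lay close to the list medians, whereas Rack1, the ribosome-bound scaffold whose start window holds the longest run shown, reached 1.28 ± 0.098. Rps4l reads may be shared with near-identical Rps4x, so its high ratio of 1.93 is uncertain.

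The elongation factors were uneven. Eef2, which moves the ribosome along the mRNA, counted 277620, 239690, 271300 and 263590 in total and 532980, 512190, 427580 and 398570 in polyribosomal RNA, a log2 ratio of 1.04 ± 0.21. Eef1a1, which delivers aminoacyl-tRNA, counted 622620, 561980, 634290 and 628700 in total and 526240, 568450, 491020 and 742760 in polyribosomal RNA. Its ratios of -0.044, 0.20, -0.14 and 0.49 averaged 0.12 ± 0.28 and did not pass the test (limma, adjusted p = 0.255). Eef1d and Eif5a stood high at 1.54 and 1.29. Pabpc1, the poly(A)-binding protein, was at the other end, with 41641, 47079, 39831 and 40265 in total against 12047, 18040, 10334 and 14353 in polyribosomal RNA and a ratio of -1.44 ± 0.26. Tpt1, a well-known TOP mRNA, had ratios on both sides of 0 (-0.22, -0.0072, -0.37 and 0.19) and did not pass (adjusted p = 0.362). Of 40 initiation and release factors 25 were higher and 6 lower (median 0.58, but -0.039 at column totals), beside 39.7% and 38.5% of all genes. They were led by Eif6 (2.04), which keeps the large subunit from joining, the exchange factor subunit Eif2b2 (1.89) and Eif3g (1.79). Ribosome assembly factors had a median of 0.46 (-0.16 at column totals), with the nucleolar methyltransferase Fbl at 1.96 and Bop1 at 1.95, and aminoacyl-tRNA synthetases one of 0.65, with Farsa at 1.99.

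Iron storage mRNAs are a textbook case of translation set by an mRNA element. The list of iron genes lay low, and whether the element had a part in that was not tested. Storage mRNAs carry the element in the 5′ untranslated region, where iron regulatory proteins block initiation, and the transferrin receptor mRNA carries several in its 3′ untranslated region. GENCODE M21 transcripts were searched for a C, 5 bases, the loop CAGTG followed by A, C or T, and 5 bases that can pair with the first 5 (G with T allowed), on the transcript strand. A match was found in 155 of 13569 tested protein-coding genes (1.14%). Matches in Fth1, Ftl1, Slc40a1 and Tfrc are shown with the loop in capitals (GRCm38), the first of 4 for Tfrc.
Fth1, 5′ untranslated region (chr19:9982733-9982759, plus strand): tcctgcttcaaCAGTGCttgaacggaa
Ftl1, 5′ untranslated region (chr7:45459780-45459806, minus strand): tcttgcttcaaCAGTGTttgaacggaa
Slc40a1, 5′ untranslated region (chr1:45925466-45925492, minus strand): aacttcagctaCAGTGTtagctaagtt
Tfrc, 3′ untranslated region (chr16:32631220-32631246, plus strand): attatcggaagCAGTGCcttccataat
Fth1, the ferritin heavy chain, counted 247260, 213620, 327720 and 322320 in total and 105990, 70293, 122130 and 91194 in polyribosomal RNA. The log2 ratio was -1.02, -1.42, -1.20 and -1.57, below the median gene in every culture, with a mean of -1.30 ± 0.24, or 0.405 times the median gene. Tfrc, the receptor for iron uptake, counted 8108, 8243, 5320 and 8242 against 1638, 2113, 962 and 1903, a ratio of -1.999 ± 0.21. Slc40a1, the iron exporter, had a ratio of -1.64 ± 0.22 and the ferritin light chain Ftl1 one of -0.31 ± 0.25. Aco1, the iron regulatory protein that doubles as cytosolic aconitase, was the only iron gene above the median gene, at 1.01 ± 0.18. In all, 7 of 8 iron genes were lower, beside 38.5% of all genes, with a median of -0.60. The wild-type median of the list was -0.72. Ireb2 (-0.26) and Slc11a2 (-0.43), in whose transcripts the search found no match, were lower too.

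High ratios were found among mRNAs of microtubules and of energy metabolism. In the tubulin list all 13 alpha and beta tubulin genes were at least 2-fold above the median gene, beside 17.4% of all genes, with a median log2 ratio of 1.89 and quartiles of 1.83 and 1.99. Near-identical tubulin copies may share reads, which leaves the group firmer than any member. Tubb5, a widely expressed beta tubulin, counted 121210, 158880, 90039 and 142590 in total and 449740, 476530, 373040 and 424260 in polyribosomal RNA, a ratio of 1.99 ± 0.24. Tubb3, the neuronal beta tubulin, reached 2.26 ± 0.28, with total values of 1474, 572, 1057 and 1458, lowest in culture 2. Actb, the cytoplasmic beta-actin, stood at 2.13 ± 0.42, with ratios of 1.98, 2.000, 2.73 and 1.79, highest in culture 3. The actin list was split, with 5 genes 2-fold higher and 11 2-fold lower of 28, the latter including the long mRNAs of the scaffold Iqgap1 (-2.24) and of beta-spectrin Sptbn1 (-2.07).

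Ckb, the brain creatine kinase that buffers ATP, counted 785300, 647160, 578600 and 698000 in total RNA and 3609200, 2229300, 2423500 and 2518100 in polyribosomal RNA. That was 0.881% to 1.14% of all normalised counts in total RNA and 2.5% to 3.75% in polyribosomal RNA, and its log2 ratio was 2.19 ± 0.19, 4.56 times the median gene. Gapdh, of the payoff phase of glycolysis, counted 202070, 209300, 161350 and 209850 against 832020, 677900, 775220 and 746510, a ratio of 2.17 ± 0.26. Of 17 glycolytic genes, a family picked after values were seen, 16 were higher, 13 of them at least 2-fold, with a median of 1.75. The shares of all genes were 39.7% and 17.4%. Others among the 12 highest of the called genes with a mean of at least 200 in each fraction were Dpysl2 (2.41 ± 0.11), a tubulin-binding protein of growing neurites, Acy3 (2.29 ± 0.21), an aminoacylase, Snrpb (2.18 ± 0.18), a core spliceosomal protein, Cryl1 (2.18 ± 0.24) and the G protein subunit Gnb2 (2.15 ± 0.17). Eno1b, Gm29679 and Gm12070 were also there. Eno1b total values of 2859, 48568, 43513 and 2819 differed more than 10-fold between cultures, and reads shared with near-identical Eno1 make that gene uncertain. Rn45s, the 45S precursor of ribosomal RNA and not an mRNA, had the highest mean of these 12 (3.09 ± 1.43) and the widest spread, with culture 1 at 1.18 and the others at 4.04, 2.84 and 4.32.

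**Figure D2:**
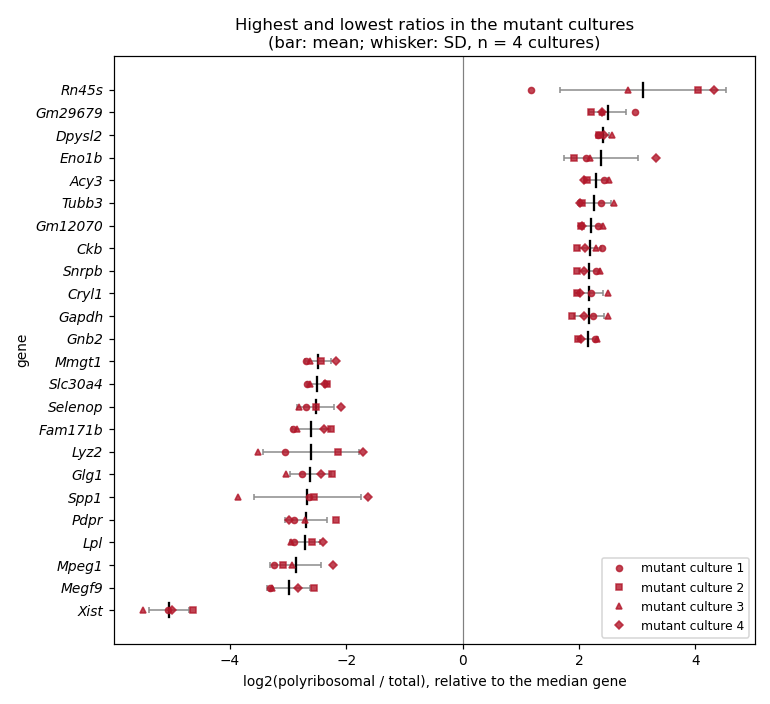
Log2 ratio of polyribosomal to total RNA relative to the median gene (x axis) for the 12 highest and 12 lowest called genes with a mean of at least 200 in each fraction (y axis), with a marker for each mutant culture, a bar at the mean and whiskers of 1 SD (n = 4). Rn45s, Spp1, Lyz2 and Eno1b have the widest spread, and Xist stands alone at the bottom with a mean of -5.05.

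Protein quality control and mitochondrial mRNAs were also high. Of 37 proteasome genes 36 were higher and none lower, 30 of them by at least 2-fold (median 1.35). Of all genes 39.7% were higher, 17.4% by at least 2-fold. Psmb5, the catalytic subunit with chymotrypsin-like activity, counted 10849, 11349, 10497 and 13939 in total and 43797, 38760, 35354 and 42188 in polyribosomal RNA, a ratio of 1.997 ± 0.15. All 8 subunits of CCT, the chaperonin that folds actin and tubulin, were higher (median 0.89), led by Cct7 at 1.74. Of 76 mitochondrial ribosomal protein genes 66 were higher and 4 lower (median 0.92, beside 0.33 and 0.27 for the cytosolic subunits). Mrpl4 was the leading member at 1.95 ± 0.18. Nuclear-encoded subunits of the respiratory chain and ATP synthase were higher in 57 of 79 (median 0.54, but -0.082 at column totals), with Ndufs3 of complex I at 1.79, Sdhb of complex II at 1.64 and Uqcrfs1 of complex III at 1.78.

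Lists of cell division and RNA processing genes had medians above the median gene as well. Of all genes 39.7% were called higher and 38.5% lower. S phase genes were higher in 24 of 30 (median 1.05), among them the helicase subunit Mcm5 (1.89 ± 0.30). Mitosis genes were mixed, 15 higher and 9 lower of 28 (median 0.38, but -0.23 at column totals). The kinases Cdk1 (1.89) and Plk1 (1.66) and the anaphase activator Cdc20 (1.84) were all high. Histone genes were higher in 47 of 63 with none lower. Their median differed between cultures (0.59, 0.73, 0.73 and 1.45), and replication-dependent histone mRNAs lack a poly(A) tail, so that poly(A)-selected libraries hold only a part of them. Of 20 hnRNP genes 19 were higher (median 0.90), led by Hnrnpa0 (1.63). The SR list held Srsf2 at 1.41 and the kinase Clk1 at -1.92, the latter a gene known for transcripts retained in the nucleus.

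Low ratios were found among mRNAs of proteins made at the endoplasmic reticulum. Of 32 matrix genes 30 were lower and 0 higher, and 24 were at least 2-fold lower, beside 15.4% of all genes. The median log2 ratio was -1.61, between -1.87 and -1.28 in the cultures. Col3a1, a fibrillar collagen, counted 1330, 1170, 1403 and 1371 in total and 40.1, 36.0, 99.6 and 99.4 in polyribosomal RNA, and Col1a2 counted 668, 574, 719 and 521 against 27.9, 26.4, 50.6 and 34.7. Both lay below the median gene in all 4 cultures, with ratios of -4.18 ± 0.73 and -3.94 ± 0.39. Lamb1, a laminin chain of basement membranes, stood at -2.31 ± 0.44, and Tnc, the tenascin of the stem cell niche, at -1.59 ± 0.19.

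Of the giant cadherins, which set planar polarity and adhesion, all 7 were lower (median -1.14). Fat1 counted 23983, 22899, 22864 and 21620 in total and 6116, 9353, 5690 and 6188 in polyribosomal RNA, a ratio of -1.55 ± 0.31, and culture 2 lay above the other three in the polyribosomal fraction. Other families were picked after values were seen, so their direction adds no support and is given as description. Lower were 57 of 57 protocadherins (median -1.16), 15 of 17 integrins (-1.35), 25 of 27 ADAM proteases (-1.21) and 145 of 241 solute carriers (-0.54). The share of all genes was 38.5%. The exons shared within the protocadherin clusters make single members uncertain. Receptors and transporters that mark NSCs were among the low mRNAs. Egfr, the EGF receptor, counted 10675, 11628, 10335 and 9528 against 2618, 3593, 2295 and 2717, a ratio of -1.71 ± 0.21, and the glutamate transporter Slc1a3 stood at -1.66 ± 0.31.

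Chaperones of the endoplasmic reticulum were lower in 15 of 17 with none higher (median -0.53), beside 38.5% of all genes lower. Hspa5, the chaperone BiP, counted 28542, 39462, 31750 and 36017 in total and 7164, 9993, 5092 and 11202 in polyribosomal RNA, with ratios of -1.80, -1.80, -2.41 and -1.44 and culture 3 the lowest. Hsp90b1 was at -1.92 ± 0.33. Lysosomal genes were lower in 22 of 30 with none higher (median -0.42), and 6 were at least 2-fold lower, beside 15.4% of all genes. They were led by Lamp2 (-1.92 ± 0.40), a lysosomal membrane protein, and the cholesterol transporter Npc1 (-1.30 ± 0.15). Among the 12 lowest genes with a mean of at least 200 in each fraction, Glg1 (-2.62 ± 0.35), a membrane glycoprotein of the Golgi, counted 14556, 14176, 18033 and 13039 against 1871, 2645, 1887 and 2035. The selenium carrier Selenop (-2.52 ± 0.32), the lipoprotein lipase Lpl (-2.71 ± 0.26), the zinc transporter Slc30a4 (-2.50 ± 0.17) and the membrane proteins Megf9 (-2.99 ± 0.37), Fam171b (-2.60 ± 0.33) and Mmgt1 (-2.48 ± 0.23) were others. Pdpr (-2.69 ± 0.36), a regulator of pyruvate dehydrogenase phosphatase, is mitochondrial and not secreted. Whether the low-speed spin before detergent took membrane-bound transcripts out of the gradient was not tested.

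Of the 241 solute carriers 34 were higher and 145 lower, beside 39.7% and 38.5% of all genes. Low ratios were also found in groups of nuclear proteins. Chromatin remodellers and histone methyltransferases, which are nuclear proteins, were lower in 23 of 33 (median -0.76), with Kmt2a at -1.93 ± 0.32 and Chd7 at -1.23 ± 0.24. Of 356 Zfp zinc finger genes, picked after values were seen, 246 were lower and 70 higher (median -0.87). Of the mTOR and TSC complex genes 9 of 15 were higher and 4 lower (median 0.34, -0.27 at column totals). Mlst8, shared by both mTOR complexes, stood at 1.43 ± 0.19, Rictor, which defines mTORC2, at -1.44 ± 0.26, and Tsc2 itself at 0.56 ± 0.17, though Tsc2 fell slightly below 0 at column totals.

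**Figure D3:**
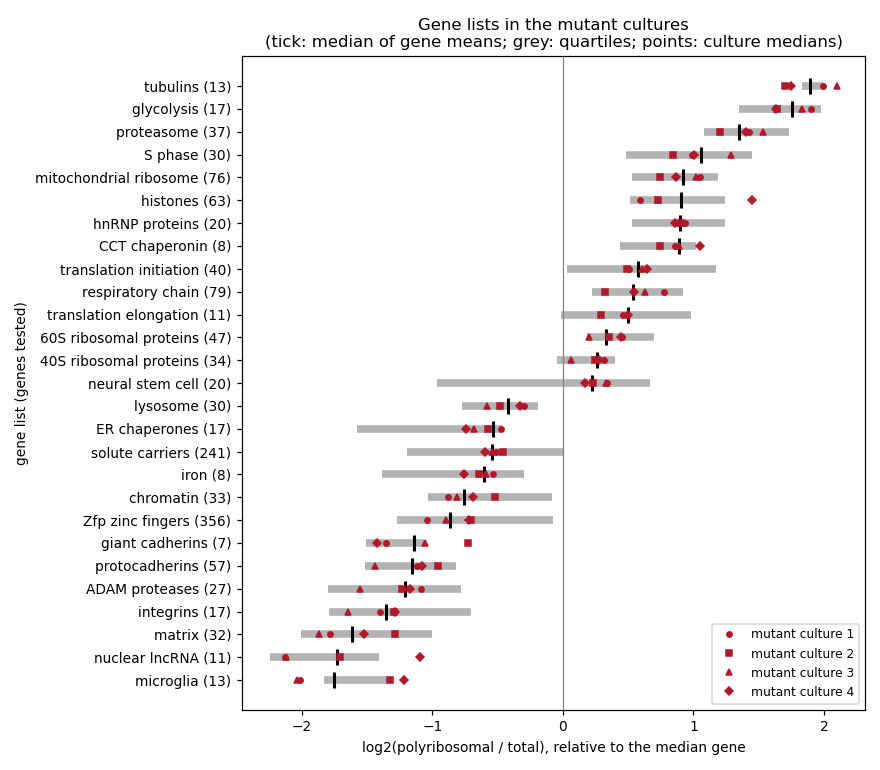
Median log2 ratio relative to the median gene (x axis) of 27 gene lists (y axis, number of genes tested in brackets) in the mutant cultures. Ticks are medians of the gene means, grey bars run between quartiles and markers are the median of each culture, from tubulins at 1.89 to microglial genes at -1.75, and positive medians of up to 0.60 may turn negative at column totals.

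Noncoding RNAs were also described. They do not check the purity of the fraction, because total RNA was taken before a spin that can remove nuclei. Long noncoding RNAs as an annotated class (510 genes) had a median log2 ratio of -0.21. In that class 11 genes were 2-fold higher and 76 2-fold lower, beside 17.4% and 15.4% of all genes. The lower count is near its share, and only the higher count is well below it. Of 11 long noncoding RNAs known to stay in the nucleus 8 were called lower and 1 higher, with a median of -1.73. Of all genes 38.5% were called lower and 39.7% higher. Xist, which coats the inactive X chromosome, counted 62.7, 24246, 20228 and 19983 in total and 0.67, 856, 384 and 526 in polyribosomal RNA of cultures 1 to 4. Xist was nearly absent from culture 1, whose ratio of -5.05 rests on a polyribosomal value near the floor. Cultures 2 to 4 had ratios of -4.64, -5.49 and -5.00, and the mean was -5.05 ± 0.35. Neat1, the scaffold of paraspeckles, counted 3560, 1743, 4254 and 1772 against 709, 452, 836 and 379, a ratio of -1.996 ± 0.17, and Firre stood at -2.53 ± 0.24. Malat1, of nuclear speckles, counted 15990, 8500, 13541 and 6681 in total and 2054, 4603, 4890 and 3327 in polyribosomal RNA. It was lower in 4 of 4 cultures, but ratios of -2.76, -0.70, -1.24 and -0.76 spread so widely that it did not pass (limma, adjusted p = 0.0817). Malat1 and Neat1 were still counted in every polyribosomal library. Host genes of small nucleolar RNAs, whose spliced transcripts are short-lived, were lower in 9 of 17 (median -0.41), beside 38.5% of all genes. Only 2 of these hosts were at least 2-fold lower, beside 15.4% of all genes. The microRNA host Mir17hg at -4.01 ± 1.06 was among the lowest of other noncoding RNAs.

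Coding length and base composition went with the ratio across genes. Over 13569 genes with an annotated coding length, genes from 100 to below 200 codons had median log2 ratios of 0.42, 0.25, 0.42 and 0.27 in mutant cultures 1 to 4, and genes of 1600 or more codons had -0.99, -0.56, -0.89 and -0.89. At least 2-fold below the median gene were 40% of the longest class and 8.01% of genes from 100 to below 200 codons. The shortest class, under 100 codons, was not the highest, and its medians of 0.33, -0.072, 0.15 and -0.055 lay on both sides of 0. The medians also rose with the GC content of the transcript. Genes under 40% GC had medians of -1.01, -0.55, -0.73 and -0.59 and genes of 60% or more 0.85, 0.73, 0.86 and 0.51. Spearman's rho across genes was -0.28, -0.19, -0.25 and -0.28 for coding length, 0.54, 0.49, 0.48 and 0.34 for GC content and -0.33, -0.27, -0.28 and -0.33 for 3′ untranslated length, given as descriptions. The points share a library, and GC content can also shift with amplification, whose part was not tested.

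Of 44 list medians 41 kept their side of 0 when genes were compared within bins of GC content. Tubulins stood at 1.48, proteasome genes at 1.38, mitochondrial ribosomal genes at 0.88, matrix genes at -1.83 and giant cadherins at -1.64 against genes of like GC content, an alternative chosen after seeing the data. The zinc finger median shrank to -0.48, and that of the histones to 0.46.

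**Figure D4:**
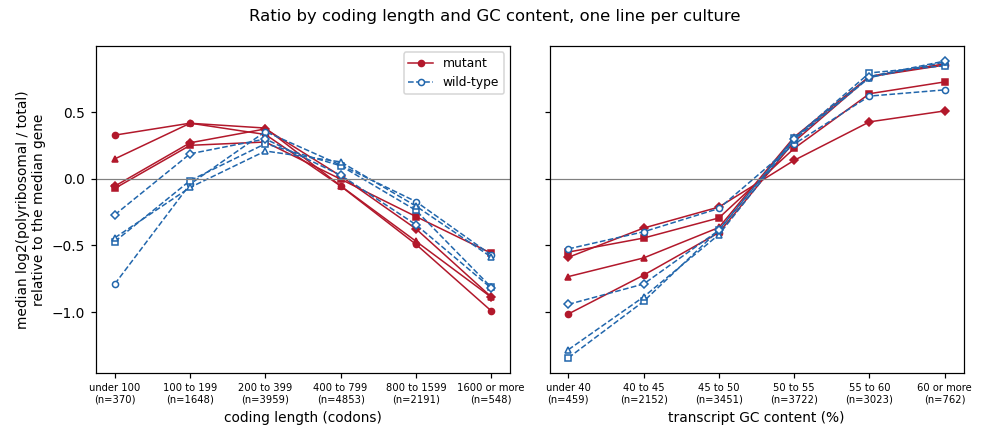
Median log2 ratio relative to the median gene (y axis) by coding length in codons (left) and transcript GC content in percent (right), with a line for each of 4 mutant (red) and 4 wild-type (blue) cultures and the number of genes under each class. Ratios fall with length above 400 codons and rise with GC content in all 8 lines, and below 200 codons the mutant lines lie above the wild-type lines.

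The NSC label was checked against markers. The intermediate filament genes Nes (72229, 65978, 55291 and 64239) and Vim (410880, 382540, 393400 and 362270) and the transcription factor Sox2 (27524, 29253, 28874 and 31360) had high counts in total RNA of all 4 mutant cultures. On polyribosomes Nes counted 65627, 66188, 37225 and 48334, which did not pass the test (ratio -0.065 ± 0.24, adjusted p = 0.575), whereas, relative to the median gene but not at column totals, Vim (0.39 ± 0.21) and Sox2 (0.57 ± 0.11) were higher. The 20 NSC genes together made up 1.56% to 1.66% of the normalised counts in total RNA and 1.39% to 1.64% in polyribosomal RNA, and ranged down to Prom1 (231, 260.3, 289 and 254) and Hes5 (110.3, 142, 59.5 and 73.3) in total RNA. The 14 astrocyte genes made up 1.3% to 1.65% and 2.9% to 4.23%, the larger part of it Ckb, so that summed marker levels do not set NSCs apart from astrocytes. Of the 20 NSC genes, 10 were higher and 6 lower. Genes of astrocytes were 5 higher and 6 lower of 14, with the glycolytic enzyme Aldoc at 1.98 and the secreted Sparcl1 at -2.17. Those shares are near those of all genes (39.7% higher and 38.5% lower).

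Microglial genes were low as a group and differed between cultures. The 13 genes tested summed to 6453, 27570, 4683 and 14570 in total RNA and to 1552, 9823, 1097 and 4769 in polyribosomal RNA of cultures 1 to 4. Cultures 2 and 4 held more of them in both fractions. In bulk RNA, fewer cells of a type and less RNA per cell cannot be told apart. Of the 13 genes 12 were at least 2-fold lower, beside 15.4% of all genes, with a median of -1.75. Csf1r, the receptor that microglia need to survive, counted 342, 1601, 232 and 581 against 48.4, 284, 34.0 and 115 (ratio -2.37 ± 0.23), and Itgam, an integrin of myeloid cells, 116, 443, 149 and 226 against 5.51, 45.4, 3.09 and 30.0 (-3.66 ± 1.03). The macrophage genes Lyz2, Mpeg1 and Spp1 were among the same 12 lowest, at -2.61 ± 0.83, -2.87 ± 0.44 and -2.67 ± 0.92. Spp1 had ratios of -2.64, -2.56, -3.86 and -1.62, with culture 3 far below the others. Of 5 endothelial and mural genes all were lower (median -1.42), beside 38.5% of all genes. Ependymal genes were higher in 3 of 5 (median 0.53, -0.082 at column totals), and the transcription factor Foxj1 was the highest of them at 1.42 ± 0.14.

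Wild-type cultures gave the same picture in outline, and the difference was tested in a fit over all 8 cultures. The mutant ratios correlated with wild-type ratios across genes with a rho of 0.78 to 0.93. The ratio differed between genotypes for 13.5% of genes (limma, adjusted p threshold 0.05), 6.06% higher and 7.42% lower in the mutant. Respiratory chain genes were higher in 50 of 79 and lower in none, their median being 0.78, 0.32, 0.63 and 0.55 in mutant cultures 1 to 4 and 0.018, -0.028, 0.011 and 0.23 in wild-type cultures 1 to 4, so that the groups did not overlap. Mitochondrial ribosomal genes were higher in 32 of 76 (medians 1.05, 0.74, 1.02 and 0.87 against 0.64, 0.55, 0.45 and 0.70), proteasome genes in 8 of 37 and cytosolic ribosomal proteins in 12 of 81, none of the last being lower. Matrix genes were lower in 15 of 32 (medians -1.78, -1.28, -1.87 and -1.53 against -1.28, -0.98, -0.27 and -1.07), giant cadherins in 4 of 7, protocadherins in 12 of 57, chromatin genes in 8 of 33 and microglial genes in 6 of 13. Tubulins, among the highest in both genotypes, held 1 gene called.

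**Figure D5:**
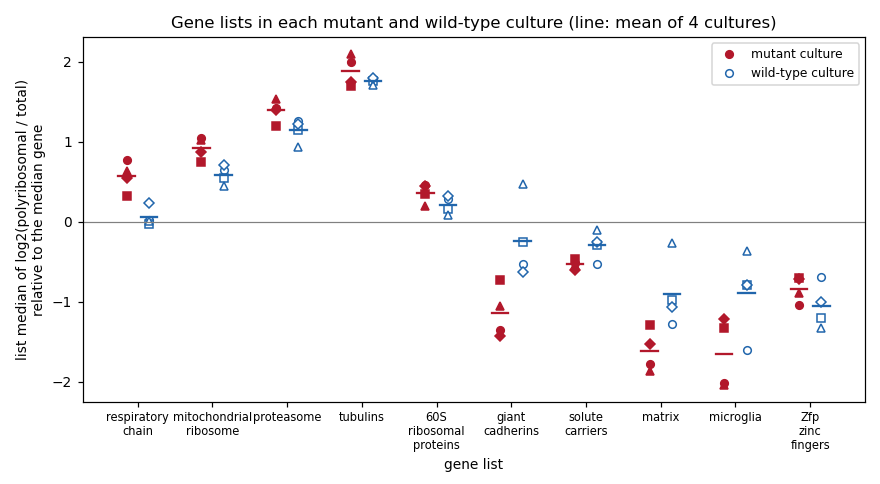
Median log2 ratio relative to the median gene (y axis) of 10 gene lists (x axis) in each mutant (filled red) and wild-type (open blue) culture, with a line at the mean of 4 cultures. The respiratory chain and mitochondrial ribosome medians are higher in the mutant without overlap, and the matrix medians are lower, with the nearest mutant and wild-type cultures both at -1.28.

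Sdhb, a subunit of succinate dehydrogenase, had mutant ratios of 1.71, 1.44, 1.75 and 1.67 and wild-type ratios of 1.20, 1.15, 1.04 and 1.21, a difference of 0.49 ± 0.11 (SE), adjusted p = 0.0101. Eef2 went the other way, with 1.14, 1.28, 0.88 and 0.84 against 1.42, 1.53, 1.68 and 1.59 and a difference of -0.52 ± 0.12 (SE), adjusted p = 0.00928. Neither gene overlapped between genotypes. Atf4, the stress-response factor with upstream reading frames, differed by 0.58 ± 0.15 (SE), adjusted p = 0.0172, and its mutant ratios of 0.74, 0.11, 0.75 and 0.19 split into cultures 1 and 3 above and 2 and 4 below. Oaz1, the antizyme that needs a ribosomal frameshift, differed by 0.58 ± 0.15 (SE), adjusted p = 0.0155.

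The genotypes also differed in the sex content of their cultures, which the labels do not give. Y-linked transcripts were high in mutant culture 1 and in wild-type cultures 1 to 3, and low in mutant cultures 2 to 4 and wild-type culture 4, as Ddx3y shows (1386, 10.2, 5.69 and 0 in total RNA of the mutant and 1165, 1637, 1672 and 70.9 of the wild-type cultures). Once the mean log2 level of Y-linked genes entered the fit, the called genes fell from 1933 to 71, so genotype and sex content cannot be told apart for most of them. The count also moved with single cultures, to 839 without mutant culture 1, 3459 without wild-type culture 1, 1003 without wild-type culture 2 and 840 without wild-type culture 3.

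Of 3 values per culture compared between genotypes, rho of the ratio with coding length averaged -0.25 ± 0.044 in the mutant and -0.088 ± 0.054 in the wild-type cultures (SD, n = 4 each). The values did not overlap (exact two-sided permutation test, p = 0.0286, the smallest that 4 against 4 allows), but the difference did not pass adjustment over the 3 values (exact permutation test, adjusted p = 0.0857). The SD of the ratio over genes was 1.02 ± 0.11 against 1.03 ± 0.027 (exact permutation test, adjusted p = 0.829). The rho of polyribosomal with total level was 0.935 ± 0.0121 against 0.94 ± 0.0029 (exact permutation test, adjusted p = 0.686).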

How the data were processed

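Polyadenylated RNA of 4 Tsc2 mutant and 4 wild-type cultures was sequenced from total and polyribosomal RNA with unstranded libraries, so antisense and overlapping genes are uncertain. The authors trimmed the reads, aligned them to mm10 with STAR and normalised them with DESeq2. The deposited values are a signal, read counts divided by size factors, in a table per fraction, each normalised apart. The read counter is not given in the sources used here. Rows whose names had become dates (26 of 24972) were left out. Libraries of a culture were paired by the number in their descriptions. Deviations from group means of both libraries of a culture correlated at 0.46 to 0.731. A per-culture constant cancels on centring at the median gene, so genes were compared with each other and not between tables.

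Differences of log2(value + 1), which understate changes of low genes, were tested in limma 3.58.1 (R 4.3.3) with variance trend, robust moderation and Benjamini-Hochberg adjustment, against 0 in the 4 mutant cultures and between genotypes over 8. The moderated spread of the mutant fit was the fitted trend alone for most genes (infinite median prior degrees of freedom). Robust moderation left some outlying genes, such as Rn45s, Spp1 and Lyz2, with their own spread. Single p-values are too small for other genes that vary more than the trend, and SDs over cultures are given. The study counts 4 cultures per genotype for the profiling and 4 mice for a gene term analysis of it, without stating litters, and the p-values reflect variation among cultures alone. The cultures and gene lists were chosen with earlier results of these data known; 6 of 49 lists were picked after values were seen. Mitochondrially encoded and red blood cell genes were not analysed here. Named genes were the 12 highest and 12 lowest means among called genes with 1 sign in all 4 mutant cultures and a mean of at least 200 in each fraction, up to 3 genes per list by smallest p, 4 abundant genes with a tract at the start, and Tsc2, Malat1, Atf4, Eef1a1, Eef2, Rpl41, Tpt1, Odc1, Oaz1, Fth1, Actb, Nes, Vim and Sox2; Ftl1, Slc40a1, Ireb2, Slc11a2, Prom1, Hes5, Amd1, Amd2 and Ddx3y were picked once values had been seen. A few genes are not reported here. Coding length, GC content and coordinates are from GENCODE M21 (GRCm38, the same build as mm10), as medians over the coding transcripts of a gene; 99.1% of tested symbols matched. A planned coding length from RefSeq proteins was replaced by this one. The fits were tested on simulated data. Alternatives changed the pseudocount, low-value filter, centring, pairing, variance model and cultures.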

Additional observations from a re-analysis of the deposited data

Results flagged for a closer look

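The following log2 ratios differed between the genotypes by the test of the difference itself (limma over 8 cultures, adjusted p threshold 0.05), given as mutant minus wild-type. Mutant cultures were higher for the mitochondrial genes Sdhb (0.49), Mrpl28 (0.45) and Ndufs3 (0.40), for the proteasome subunit Psmb5 (0.41), for Dpysl2 (0.50) and Cryl1 (0.47), for Atf4 (0.58) and Oaz1 (0.58) and for the histone gene Hist2h3c1 (1.38). They were lower for Eef2 (-0.52), the lysosomal Npc1 (-0.55), Glg1 (-0.60) and Pdpr (-0.74), and for the myeloid genes Mpeg1 (-0.92), C1qa (-1.01), Csf1r (-1.57) and Itgam (-2.22). Y-linked level went with genotype in these cultures, and its part in these differences cannot be told apart from that of genotype. The rho of the ratio with coding length was lower in the mutant by -0.16 (exact permutation test, p = 0.0286, adjusted p = 0.0857 over 3 values).

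By Dixon's criterion for 4 samples, a culture stood apart from the other three in 3 of the 156 named genes, where chance gives about 1 in 20 groups. Hist1h1c, a linker histone gene, was highest in mutant culture 3 at 1.38, Rpl41 was highest in mutant culture 1 at -0.016, and Vim was highest in mutant culture 4 at 0.71.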

How the results depend on the processing

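The count of genes off the median ratio in the mutant cultures stayed within 1.5 times of 11201 under all alternatives run, from 9162 without the pairing of libraries (no replicate block) to 11794 at column totals, and was 9663 with each gene's own spread. Centring decided the split: 50.8% of calls were higher at the median gene, 25.5% at column totals and 37.3% at the median of highly expressed genes, with 574 and 1415 genes 2-fold above and 4916 and 3344 2-fold below; within GC bins 1573 were 2-fold above. At column totals these log2 ratios turned negative: Cfap126 -0.014, Rsph1 -0.082, Tsc2 -0.056, Atf4 -0.17, Eef1a1 -0.49, Vim -0.22, Sox2 -0.047, Rps6 -0.30, Rpl28 -0.29 and Rps18 -0.34. Rps18 was also -0.028 against highly expressed genes, and within GC bins Atf4 was -0.0085, Rpl28 -0.29 and Rps18 -0.18. Over all alternatives 2705 values of named genes kept direction and side of the threshold, 47 lost the call and 15 gained it.

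The genotype difference (1933 genes, 869 higher and 1064 lower) rested on the pairing: without it (no replicate block) 0 genes passed limma's adjusted threshold, 0 higher and 0 lower, with 2271 at an unadjusted p under 0.05 beside 4311 with it. It gave 71 (60 higher, 11 lower) with the Y-linked covariate, 812 (169 lower) with no filter on low values, 706 lower without mutant cultures 2 and 4, and 1472 higher within GC bins. Leaving out each culture gave 839 to 3459 genes, 327 to 1877 higher and 436 to 1582 lower, the lower ends being without mutant culture 1 for all and higher genes and without wild-type culture 3 for lower genes, and the upper ends without wild-type culture 1; without mutant culture 3 473 were higher and without mutant culture 4 676 lower. The difference in rho with coding length was -0.19 to -0.15 on leaving out each culture and -0.18 without mutant cultures 2 and 4, designs whose smallest exact p is above 0.05. The cause of these changes was not tested.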

Other observations

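Other gene groups of the mutant cultures were less uniform. Polyamine genes were higher in 6 of 11 (median log2 ratio 0.30, -0.32 at column totals), with spermidine synthase Srm at 1.74 ± 0.18 (mean ± SD, n = 4), Smox at 1.39 ± 0.18 and ornithine decarboxylase Odc1 at 0.94 ± 0.17, which counted 21485, 27685, 19066 and 34445 in total and 34321, 41011, 36039 and 57092 in polyribosomal RNA. The list's extremes were its near-identical genes Amd1, which is among the 6 and listed at 0 in total RNA of cultures 1 to 3, and Amd2, which is listed at 0 in polyribosomal RNA of culture 3. Reads may be split between them, so both are uncertain. Sm and LSm genes were higher in 18 of 23 with none lower (median 0.60, -0.019 at column totals). mRNAs with upstream reading frames known from the stress response had a median of 0.22 (-0.39 at column totals), from Cebpa (1.17 ± 0.35) to Bace1 (-0.999 ± 0.095). Immediate early genes were 15 higher and 5 lower of 23, with Junb at 1.09 ± 0.27 and Klf6 at -1.14 ± 0.23. Total Junb was 9562, 5957, 11752 and 5985, higher in mutant cultures 1 and 3 than in 2 and 4. Near the shares of all genes (39.7% higher and 38.5% lower), interferon response genes were 13 higher and 11 lower of 30, with Ifi35 at 1.76 ± 0.11. Neuroblast genes were 5 higher and 4 lower of 13, from Tubb3 to the synaptic membrane protein Nrxn3 (-1.85 ± 0.56), and choroid plexus genes 2 and 3 of 8.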
